A study of Mus musculus with 2 samples.

Results

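Tns1, Fn1, Arpc2, Actr3 and Dst are 5 of the 1068 genes analysed here in LβT2 cells, and their products act on the actin cytoskeleton or join it to the extracellular matrix. They were picked by name and described by their level, their GnRH over vehicle ratio, their spread between cells against Poisson counting and their correlation with Btg2. Those 4 measures were known when the genes were chosen from these data, so they are given here as a description without a test. LβT2 is an immortalised mouse cell line from the anterior pituitary with features of the gonadotrope, the cell that makes luteinising and follicle-stimulating hormone. Both cultures were at passage 15 and were grown in DMEM with fetal bovine serum. One received 2 nM GnRH, the hypothalamic peptide that drives gonadotropin release, and the other received vehicle, each for 40 min. Cells were then detached with trypsin and captured in droplets for 3′ single-cell RNA-seq, in 1 library for each treatment. The material limits the comparison, as both libraries come from a single immortalised line and cells of a library are not replicates of a treatment.

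Actin filaments carry the shape and the movement of a cell, and adhesion sites tie them to the matrix outside. The Arp2/3 complex starts new filaments as branches on existing ones, and Arpc2 and Actr3 encode core subunits of it. Tns1 encodes tensin 1, which binds actin and the tails of integrins at adhesion sites, and Fn1 encodes fibronectin, a matrix protein that integrins hold. Dst encodes dystonin, a plakin that links cytoskeletal filaments to each other and to sites of attachment. In gonadotropes, GnRH is known to remodel actin and to act on cell movement, alongside its effects on early response genes such as Btg2, an antiproliferative gene that served as the marker of the response in these cells.

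The vehicle library held 1992 cells with 1126320 unique molecular identifiers (UMIs, 1 per captured transcript) over the analysed genes, and the GnRH library held 1889 cells with 1118763. Levels are given in CPM, a gene's share of these partial totals and not of the whole transcriptome. A 3′ library gives 1 count per captured molecule, so levels were not divided by transcript length. Bracketed intervals are 95% and cover counting error only. Of 8 gonadotrope markers, Inha, Inhbb and Scg2 were among the analysed genes and had 84983 summed UMIs in vehicle-treated and 81448 in GnRH-treated cells. Scg2 made up 78958 and 75893 of these, and Lhb, Fshb, Cga, Gnrhr and Nr5a1 were not among the analysed genes. Of 3 fibroblast markers analysed, 2 had 0 UMIs and the sum was 1 in vehicle-treated and 0 in GnRH-treated cells. Immune markers summed to 8 and 3 UMIs over 8 genes, 6 of them at 0. Muscle markers summed to 39 in each library over 5 genes, with Myog at 0. No cell type that should lack the 5 genes was present, so the part that free RNA has in a share of cells is not known.

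The analysed genes are the first of the gene list, and all 1062 that could be placed lie on chromosome 1, so the shared chromosome is not a trait of the 5 members and each rank is among genes of that chromosome. All 5 are protein-coding, with positions from GENCODE M21 on GRCm38. Fn1 (ENSMUSG00000026193) runs from 71585520 to 71653200 on the minus strand. Tns1 (ENSMUSG00000055322) runs from 73910231 to 74124449 on the minus strand, and Arpc2 (ENSMUSG00000006304) from 74236084 to 74268209 on the plus strand. Tns1 and Arpc2 are 111.6 kb apart, with other genes between them, and Fn1, Tns1 and Arpc2 fall in a span of 2683 kb. Actr3 (ENSMUSG00000026341) runs from 125392905 to 125435727 on the minus strand and Dst (ENSMUSG00000026131) from 33908225 to 34308661 on the plus strand. No annotated gene overlaps Tns1, Arpc2 or Actr3. Fn1 overlaps Apol7d on the other strand, and Dst overlaps 7 non-coding genes, 3 of them on its own strand. The use of strand in counting is not given in the sources used here, so reads of these overlapping pairs cannot be told apart.

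Promoter windows of 300 bases, from 250 before to 50 after a start site, were taken from RefSeq on GRCm38.p6 and matched 4 of the 5 genes, all but Fn1. The stretches that overlap no annotated exon are shown for the members that stand out below, Tns1 for its relation to Btg2 and Arpc2 and Actr3 for their relation to each other. They are written 5′ to 3′ on the strand of the gene, and capitals mark the GC box (GGGCGG or its reverse complement). The stretch for Tns1 is chr1:74124549-74124798 (minus strand), that for Arpc2 is chr1:74236323-74236496 (plus strand) and that for Actr3 is chr1:125435728-125435977 (minus strand).
Tns1: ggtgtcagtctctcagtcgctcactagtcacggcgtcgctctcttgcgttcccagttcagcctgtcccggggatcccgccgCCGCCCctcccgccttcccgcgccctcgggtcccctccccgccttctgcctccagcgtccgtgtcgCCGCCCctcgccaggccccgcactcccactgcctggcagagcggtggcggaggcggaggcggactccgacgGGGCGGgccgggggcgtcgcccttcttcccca
Arpc2: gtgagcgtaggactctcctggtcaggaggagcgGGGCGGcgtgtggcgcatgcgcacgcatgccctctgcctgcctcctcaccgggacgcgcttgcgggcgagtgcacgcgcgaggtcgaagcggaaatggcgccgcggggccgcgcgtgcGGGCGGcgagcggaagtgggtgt
Actr3: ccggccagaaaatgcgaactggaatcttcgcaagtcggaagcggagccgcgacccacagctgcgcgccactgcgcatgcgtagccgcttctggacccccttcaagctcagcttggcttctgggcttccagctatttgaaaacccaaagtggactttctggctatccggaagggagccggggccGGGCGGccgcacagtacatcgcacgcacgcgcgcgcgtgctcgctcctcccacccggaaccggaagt

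Windows of Tns1, Arpc2 and Actr3 were GC-rich, at 75.7%, 70.0% and 67.3% G or C, against a median of 52.7% over 32851 mouse windows. GC boxes numbered 4 in the whole window of Tns1, 3 in that of Arpc2 and 1 in that of Actr3. A GC box was present in 35.7% of all windows. Of the 2 windows listed for Dst, 1 was at 70.3% G or C and held 4 GC boxes. The other was at 46.0%, under the median of 52.7%, and held 0. On both strands, none of these windows held a CArG box (CCNNNNNNGG with A or T at each N), a CRE (TGACGTCA), an AP-1 site (TGANTCA), an EGR site (GCGNGGGCG with G or T at N) or a TATA box (TATAAA). Of all windows, 1.63%, 1.79%, 7.81%, 3.47% and 13.6% held them, in that order. An EGR site can overlap a GC box, but no EGR match was found here.

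For comparison, a stretch is shown for each of 2 genes that were higher in the GnRH library. Capitals mark the CRE in Btg2 (chr1:134079289-134079346, minus strand), at position -166 from the start site, and the CArG box in the second window of Fhl2 (chr1:43163962-43164017, minus strand), at position -31. The first window of Fhl2 also held a CArG box. A match of letters is a description and not a binding site.
Btg2: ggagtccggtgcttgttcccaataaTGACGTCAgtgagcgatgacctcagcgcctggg
Fhl2: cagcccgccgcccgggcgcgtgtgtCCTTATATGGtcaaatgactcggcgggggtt

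The Arp2/3 subunits were the most abundant of the 5 genes, and neither differed between libraries by more than a small fraction. Arpc2 had 9259 UMIs in vehicle-treated and 9110 in GnRH-treated cells, ranks 22 and 21 of the 1068 genes. Its level was 8221 CPM (8054 to 8390) in vehicle-treated and 8143 CPM (7977 to 8312) in GnRH-treated cells, with a log2 ratio of -0.01 (-0.06 to 0.03). On the CPM scale these levels overlapped within counting error. Under median-of-ratios and TMM scaling the log2 ratio was 0.067 and 0.078, above 0 by more than counting error. Actr3 had 6364 and 6818 UMIs, at ranks 31 and 30. Its level was 5650 CPM (5512 to 5791) in vehicle-treated and 6094 CPM (5950 to 6241) in GnRH-treated cells, with a log2 ratio of 0.11 (0.06 to 0.16). The GnRH level of Actr3 lay above the vehicle level by more than counting error, with no replicate library to set it against. For each Actr3 UMI there were 1.46 Arpc2 UMIs (1.409 to 1.502) in vehicle-treated and 1.34 (1.295 to 1.379) in GnRH-treated cells. Whether this ratio differs between treatments was not tested, as there was 1 library of each.

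Tns1 was the third member by level and was slightly lower in the GnRH library on the CPM scale. It had 3027 UMIs in vehicle-treated and 2691 in GnRH-treated cells, at ranks 61 and 68. Its level was 2688 CPM (2593 to 2785) in vehicle-treated and 2405 CPM (2315 to 2498) in GnRH-treated cells, with a log2 ratio of -0.16 (-0.24 to -0.08). The size of this difference depends on the scaling, as the log2 ratio was -0.079 under median-of-ratios and -0.068 under TMM scaling, within counting error of 0 for TMM. Fn1 had 640 and 712 UMIs, at ranks 246 and 215. Its level was 568 CPM (525 to 614) in vehicle-treated and 636 CPM (591 to 685) in GnRH-treated cells, with a log2 ratio of 0.16 (0.01 to 0.32). The interval of the Fn1 ratio lay just above 0, and the ratio was 0.24 under median-of-ratios and 0.26 under TMM scaling. Dst was close to the limit of detection, with 19 UMIs in vehicle-treated and 11 in GnRH-treated cells. Its level was 16.9 CPM (10.2 to 26.3) and 9.83 CPM (4.91 to 17.6), with a log2 ratio of -0.78 and an interval from -1.997 to 0.37 that spans 0. A difference in Dst was not detectable at this depth.

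**Figure D1:**
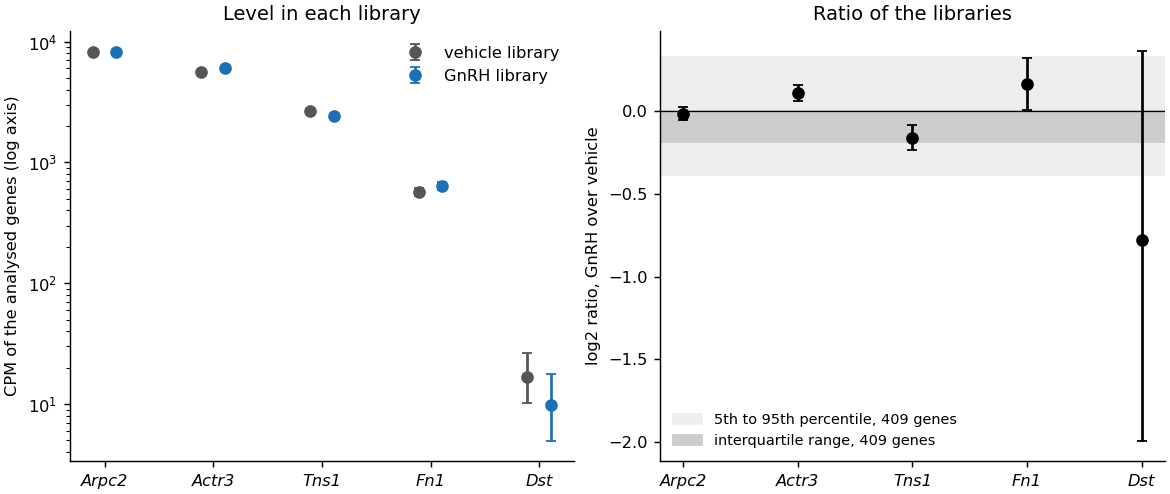
Left, CPM of the analysed genes (log axis) for each member in the vehicle and GnRH libraries, with 95% Poisson intervals. Right, log2 ratio of GnRH over vehicle with its counting interval, over bands for the 409 genes with at least 100 UMIs. Arpc2 and Actr3 are the most abundant members, Dst is the least, and the members other than Dst lie between -0.16 and 0.16.

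Actr3 and Fn1 lay above the interquartile range of all genes, Arpc2 and Tns1 lay inside it, and none of the 4 was near 2-fold. Over the 409 genes with at least 100 UMIs in the 2 libraries together, the median log2 ratio was -0.09, the interquartile range -0.19 to 0.00, and the 5th and 95th percentiles -0.38 and 0.33. Arpc2 was at percentile 71.4 of these genes, Actr3 at 89.2, Tns1 at 30.1 and Fn1 at 91.9. Of the 409 genes, 1.22% reached 2-fold in favour of GnRH and 0% reached it in favour of vehicle, and none of the 4 members with 100 UMIs was among them. Btg2 itself went from 1049 to 33510 UMIs, a log2 ratio of 5.01. The Arpc2 ratio lay so near 0 that its sign depended on the scaling.

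The ratios were also taken within ranges of depth, since 11.0% of vehicle-treated and 5.72% of GnRH-treated cells had under 300 UMIs. In those cells Tns1 was at 2891 CPM (2402 to 3449) in the vehicle and 1639 CPM (1141 to 2279) in the GnRH library, a log2 ratio of -0.82 (-1.40 to -0.27). In cells with 700 UMIs or more it was at 2645 CPM (2492 to 2806) and 2627 CPM (2475 to 2787), a log2 ratio of -0.01 (-0.13 to 0.11). The ratios in the 2 ranges between were -0.25 and -0.23, so the lower Tns1 level of the GnRH library was in the shallower cells and the deepest were near 0. Whether the ranges differ was not tested. For Actr3 the ratio was 0.16, 0.17, 0.15 and 0.03 from the shallowest to the deepest range, and for Arpc2 it was 0.10, 0.07, 0.03 and -0.11. Fn1 was at -0.77 (-1.95 to 0.28) in cells under 300 UMIs, from 34 and 10 UMIs, and at 0.20, 0.30 and 0.12 in the other ranges. What sets the depth of a cell was not tested.

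Most cells carried the Arp2/3 subunits, and a minority carried Fn1. Arpc2 was counted in 1903 of 1992 vehicle-treated cells, 95.5% (94.5 to 96.4%), and in 1835 of 1889 GnRH-treated cells, 97.1% (96.3 to 97.9%). The median was 4 UMIs per cell in both libraries. Actr3 was found in 90.1% (88.7 to 91.4%) of vehicle-treated and 93.4% (92.2 to 94.5%) of GnRH-treated cells, with a median of 3 UMIs in both. These shares were close to those that Poisson counting gives from the mean and the totals of the cells, 96.2% and 97.3% for Arpc2 and 91.7% and 94.5% for Actr3. When each cell was thinned to 300 UMIs, which left 1773 vehicle-treated and 1781 GnRH-treated cells, Arpc2 was found in 88.8% (87.3 to 90.3%) and 90.9% (89.5 to 92.2%), and Actr3 in 80.4% (78.5 to 82.2%) and 82.7% (80.9 to 84.4%).

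Tns1 and Fn1 were found in fewer cells than Poisson counting gives. Tns1 was in 67.3% (65.2 to 69.4%) of vehicle-treated cells against 74.0% by counting, and in 65.1% (62.9 to 67.3%) of GnRH-treated cells against 72.7%. At equal depth its shares were 51.0% (48.6 to 53.3%) and 46.4% (44.1 to 48.8%). Fn1 was in 20.5% (18.7 to 22.3%) of vehicle-treated cells against 26.9% by counting, and in 23.2% (21.4 to 25.2%) of GnRH-treated cells against 30.7%. At equal depth its shares were 13.4% (11.8 to 15.0%) and 14.7% (13.1 to 16.4%), and these intervals overlapped. The missing cells were balanced by cells with many fibronectin transcripts. Of vehicle-treated cells 2.51% had 3 or more Fn1 UMIs against 0.605% by counting, and of GnRH-treated cells 3.55% did against 0.883%. The 10% of cells with most Fn1 UMIs held 67.3% of them in vehicle-treated and 64.9% in GnRH-treated cells, and the highest cell had 11 and 10. Dst was found in 17 vehicle-treated cells, or 0.853% (0.498 to 1.36%), and 10 GnRH-treated cells, or 0.529% (0.254 to 0.971%).

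**Figure D2:**
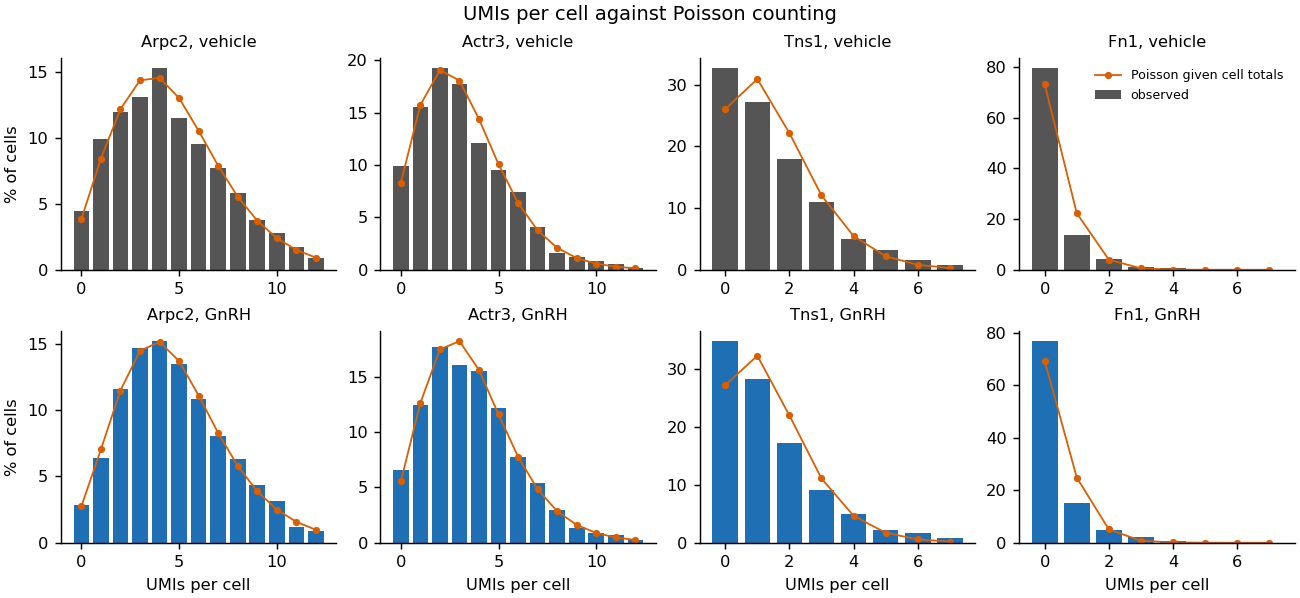
Share of cells (%) by UMIs per cell for Arpc2, Actr3, Tns1 and Fn1 in the vehicle (top) and GnRH (bottom) libraries. Bars are the observed shares and the line is Poisson counting given each cell's UMI total; cells beyond the plotted range are left out. Arpc2 and Actr3 follow the line, while Tns1 and Fn1 have more cells at 0.

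The spread of each gene is given as the coefficient of variation, squared, over the value expected from Poisson counting and the UMI totals, where 1 means counting alone. Fn1 was at 1.92 in vehicle-treated and 1.94 in GnRH-treated cells, the 8th and 9th highest values among genes that averaged 0.1 UMI per cell or more. Tns1 was at 1.41 and 1.53, at ranks 26 and 21. Arpc2 was at 1.11 and 0.951, at ranks 110 and 337, and Actr3 at 1.15 and 1.03, at ranks 84 and 246. The median gene was at 1.07 in each. At 1.5 or above there were 5.81% of 344 genes in the vehicle and 6.73% of 342 genes in the GnRH library. Tns1 was inside this threshold in the GnRH library and outside it in the vehicle library, and whether these values differ was not tested. Just outside stood Bcl2 at 1.48 in the vehicle and Ube2t at 1.47 in the GnRH library, and just inside stood Dbi and Sag, at 1.504 and 1.505. After thinning to 300 UMIs, Fn1 was at 1.48 and 1.43 and Tns1 at 1.26 and 1.29 in the vehicle and GnRH libraries, all under 1.5, and Arpc2 in the vehicle library was at 1.23, close to Tns1 there. Dst, with a mean under 0.1, was at 1.20 and 1.18 and was not ranked.

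**Figure D3:**
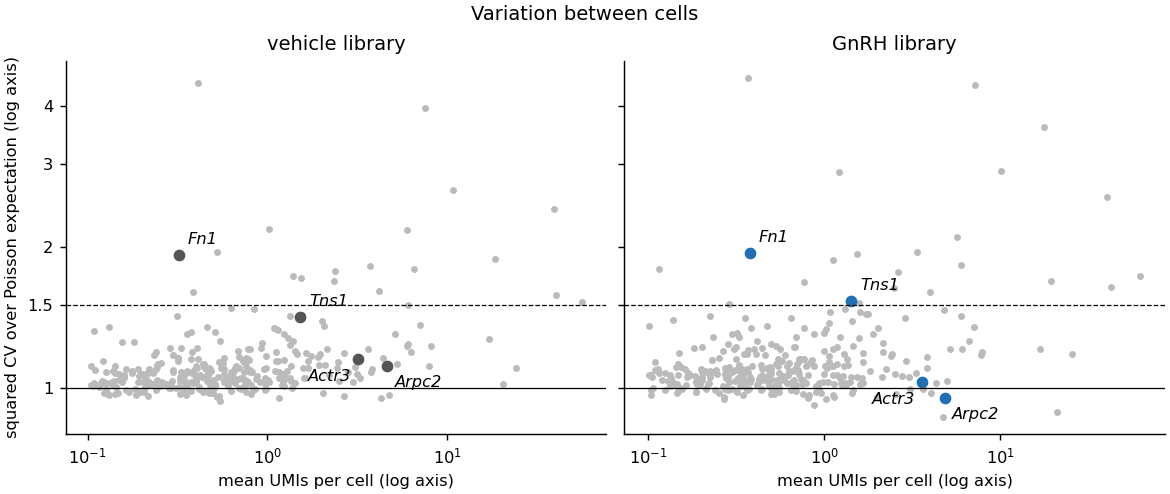
Squared coefficient of variation over the Poisson expectation against mean UMIs per cell (both log axes), for genes that averaged 0.1 or more in the vehicle (left) and GnRH (right) libraries. The dashed line is 1.5 and the solid line is counting alone. Fn1 lies near 1.9 in both libraries, Tns1 near 1.5, and Actr3 and Arpc2 near 1.

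Among GnRH-treated cells, those with more Btg2 also had more Tns1. Over cells thinned to 300 UMIs, the Pearson correlation of Tns1 with Btg2 was 0.161 (0.143 to 0.189 over 20 thinnings) in the GnRH library, the third highest of 341 genes, and -0.02 (-0.07 to 0.00) in the vehicle library. Coq10b, at 0.343, and Ptprn, at 0.164, ranked above Tns1, and both were past 2-fold in favour of GnRH, which Tns1 was not. Tns1 was not alone in this, as Ecel1 (0.153, log2 ratio 0.07), Khdrbs2 (0.141, -0.03), Akr1cl (0.140, -0.23) and Cntnap5a (0.108, -0.15) also reached 0.1 with little difference between libraries. Actr3 was at 0.054 (0.024 to 0.080) in the GnRH library, at rank 25, and at -0.03 in the vehicle library. Arpc2 was at -0.04 in GnRH-treated and -0.05 in vehicle-treated cells, where it ranked 337 of 343 genes and lay under the 5th percentile of -0.039. In the same order Fn1 was at -0.04 and 0.02, and Dst at -0.05 and 0.02. Of all genes, 3.52% were at 0.1 or above and 3.81% at -0.1 or below in the GnRH library, and 0.292% and 0% in the vehicle library. Cells of a library share its processing, Btg2 was sparse in the vehicle library, and in sparse counts a weak correlation is no finding. The values are low throughout, that of Tns1 in GnRH-treated cells included.

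**Figure D4:**
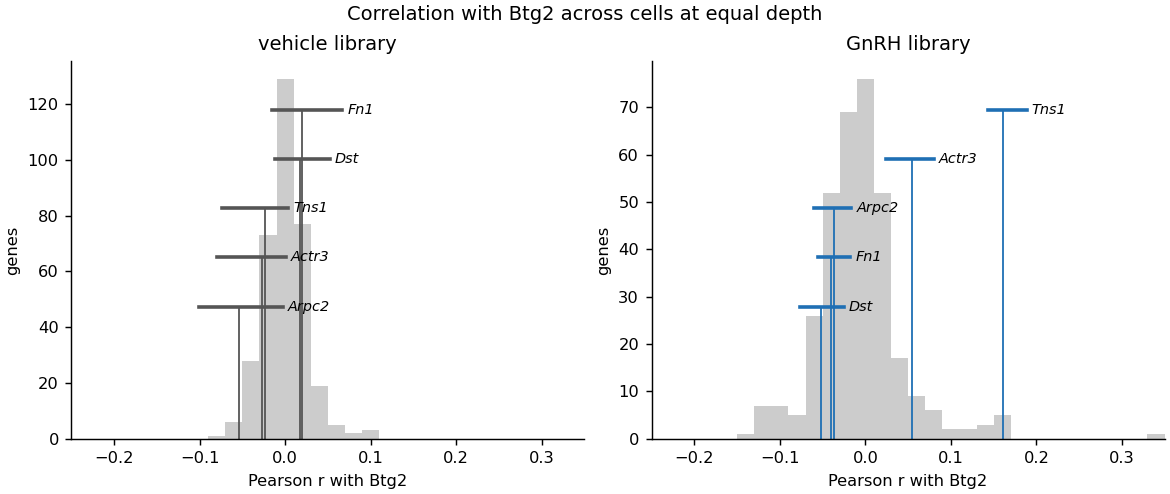
Number of genes by Pearson correlation with Btg2 across cells thinned to 300 UMIs, in the vehicle (left) and GnRH (right) libraries. Vertical lines mark the members and horizontal lines the range over 20 thinnings. Tns1 stands at 0.161 in the GnRH library, away from the bulk of genes. Actr3 there and Arpc2 in the vehicle library lie toward the edges, and the others lie within the bulk.

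The same relation was seen as a gradient of Tns1 level. GnRH-treated cells with 0 to 3 Btg2 UMIs at equal depth had 0.487 Tns1 UMIs per cell (0.427 to 0.553, 485 cells). Those with 4 to 7 had 0.696 (0.617 to 0.782, 401 cells), those with 8 to 12 had 0.745 (0.661 to 0.836, 388 cells) and those with 13 or more had 0.886 (0.806 to 0.971, 507 cells). From the lowest to the highest of these classes Tns1 was 1.82-fold higher (1.55 to 2.14), an interval that is too narrow to the extent that Tns1 varies between cells by more than counting. Vehicle-treated cells had 0.799 Tns1 UMIs per cell at the same depth, above the lowest class of GnRH-treated cells and below the highest. Within the vehicle library Tns1 was at 0.812 in 1413 cells without a Btg2 UMI, 0.774 in 283 cells with 1 and 0.662 (0.493 to 0.871) in 77 cells with 2 or more. The intervals of these vehicle values overlapped.

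The Tns1 gradient was present at each depth. Between GnRH-treated cells with 13 or more and with 0 to 3 Btg2 UMIs, Tns1 was 1.90-fold higher (1.47 to 2.48) in cells that had 300 to under 500 UMIs before thinning. It was 1.67-fold higher (1.297 to 2.15) in those with 500 to under 700 and 2.09-fold higher (1.44 to 3.08) in those with 700 or more. Mean Btg2 at equal depth was 8.84, 9.23 and 8.95 UMIs per cell in these ranges. With Btg2 left out of the UMIs before thinning, the correlation of Tns1 with Btg2 in the GnRH library was 0.179.

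Among GnRH-treated cells Actr3 had a shallow gradient in the same direction, and Fn1 was lowest where Btg2 was highest. Actr3 was at 1.70 UMIs per cell (1.59 to 1.82) in the lowest Btg2 class of GnRH-treated cells and 2.03 (1.91 to 2.16) in the highest, 1.19-fold higher (1.09 to 1.31). Arpc2 was at 2.63 (2.49 to 2.78) and 2.49 (2.35 to 2.63) in these classes, a ratio of 0.948 (0.876 to 1.03). The thinned UMIs included Btg2, at a mean of 1.57 per cell in the lowest class and 18.4 in the highest. This left less room for the other genes in the highest class. With Btg2 left out before thinning, r with Btg2 in the GnRH library was -0.005 for Arpc2, 0.088 for Actr3 and -0.037 for Fn1. With Btg2 kept in, these were -0.037, 0.054 and -0.040. Class ratios were not taken with Btg2 left out, so its part in them was not tested. Within depth ranges Actr3 was 1.25-fold (1.07 to 1.46), 1.19-fold (1.03 to 1.37) and 1.09-fold (0.894 to 1.34) higher in the highest class, from the shallowest to the deepest range, and the last interval spans 1. Fn1 was at 0.214 (0.175 to 0.260) in the lowest class, 0.237 and 0.196 in the next ones and 0.128 (0.0990 to 0.163) in the highest, a ratio of highest to lowest of 0.598 (0.432 to 0.823). These rest on 104 and 65 Fn1 UMIs, and Fn1 varies between cells by more than counting, so this interval too is narrow. The r of Fn1 with Btg2 in the GnRH library, -0.04, ranked 271 of 341 genes, within the bulk. These class ratios were taken for the members only. Within the same depth ranges the Fn1 ratio was 0.683 (0.401 to 1.14), 0.560 (0.314 to 0.978) and 0.535 (0.274 to 1.03), and the first and last intervals span 1. Vehicle-treated cells did not have this order, with Fn1 at 0.176 (0.154 to 0.199) without a Btg2 UMI, 0.141 (0.101 to 0.193) with 1 and 0.234 (0.139 to 0.370) with 2 or more, and these intervals overlapped. Dst had 3, 1, 1 and 0 UMIs in the 4 classes, and the upper limit for the 507 cells with 0 was 0.00728 UMIs per cell.

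**Figure D5:**
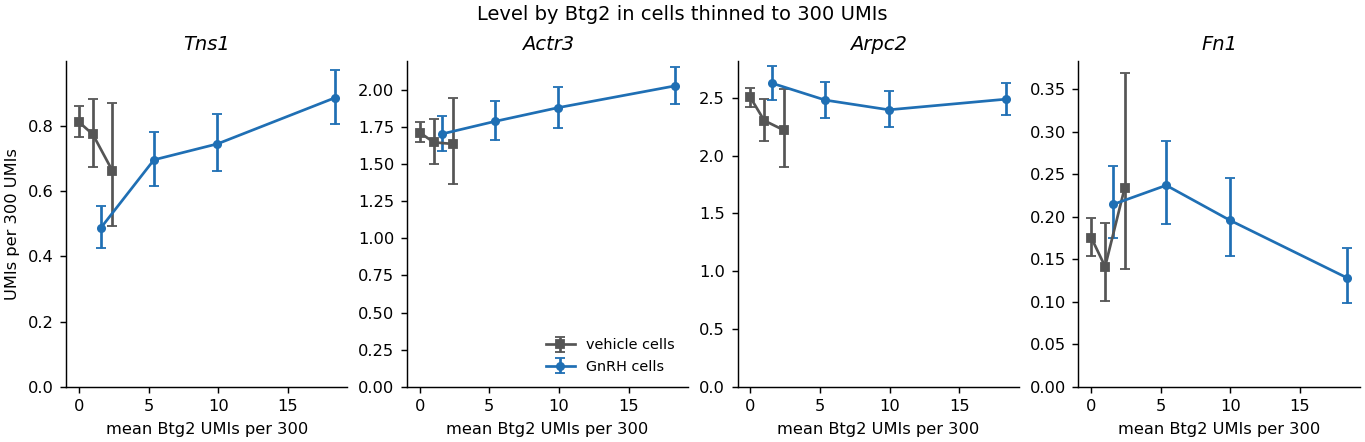
UMIs per cell of Tns1, Actr3, Arpc2 and Fn1 in cells thinned to 300 UMIs, against the mean Btg2 UMIs of the cells in each class. Squares are vehicle-treated cells (0, 1, and 2 or more Btg2 UMIs), circles are GnRH-treated cells (0 to 3, 4 to 7, 8 to 12, and 13 or more), and bars are 95% Poisson intervals. Tns1 climbs from 0.487 to 0.886 in GnRH-treated cells, and Fn1 is lowest, at 0.128, in the class with most Btg2.

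The correlations between members, which the choice of the genes did not use, were all weak. Arpc2 and Actr3 had r = 0.061 (0.037 to 0.096 over 20 thinnings) across 1773 vehicle-treated and 0.079 (0.049 to 0.107) across 1781 GnRH-treated cells. Of 338 genes, Arpc2 was the one most correlated with Actr3 in each library, and Actr3 was the one most correlated with Arpc2 in the GnRH library and the 7th in the vehicle library. Over all 57291 pairs of 339 genes, also averaged over 20 thinnings, the 95th percentile of r was 0.030 in vehicle-treated and 0.029 in GnRH-treated cells and the 99th was 0.048 in both. The 5th percentile was -0.030 in both. Fn1 and Arpc2 were at -0.063 in vehicle-treated cells, beyond that percentile and as large in size as Arpc2 and Actr3, and at -0.016 in GnRH-treated cells. Tns1 and Fn1 were at 0.045 and 0.040, above the 95th percentile in both. Fn1 and Actr3 were at -0.032 in vehicle-treated cells, just beyond the 5th percentile, and at -0.015 in GnRH-treated cells. The other pairs of members lay between -0.028 and 0.021. All of these are low values from sparse counts across cells that share a library. Most of the 339 genes were sparser than Arpc2 and Actr3, and no background of equally abundant genes was taken.

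Cells with fibronectin transcripts did not carry more of the other members by a clear margin. At equal depth, Tns1 was 1.13-fold higher (0.969 to 1.31) in the 237 vehicle-treated cells with an Fn1 UMI than in the 1536 without, and 1.05-fold higher (0.895 to 1.23) in the GnRH library. Arpc2 stood at 0.900 (0.821 to 0.986) and 0.953 (0.875 to 1.04) of its level in cells without Fn1, and Actr3 at 0.927 (0.830 to 1.03) and 0.880 (0.794 to 0.974). The intervals of Arpc2 in the vehicle library and of Actr3 in the GnRH library thus lay under 1. Dst, from few UMIs, was at 1.62 (0.168 to 8.12) and 1.45 (0.0294 to 14.7).

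The genes most like each member were named by the lower of their r in the 2 libraries. For Tns1 these were Cntnap5a (0.131 in vehicle-treated and 0.130 in GnRH-treated cells), a neurexin-family gene, Akr1cl (0.123 and 0.089) and Ecel1 (0.118 and 0.084). For Fn1 they were Rpl37a (0.127 and 0.123), a ribosomal protein gene, Cntnap5a (0.112 and 0.103) and Itm2c (0.072 and 0.073). Cntnap5a thus stood in the lists of both genes that varied most. For Arpc2 they were Igfbp5 (0.093 and 0.074) and Igfbp2 (0.066 and 0.064), which encode secreted binding proteins of insulin-like growth factors, and then Actr3. For Actr3 they were Arpc2, Igfbp5 (0.050 and 0.068) and Smap1 (0.052 and 0.035). For Dst, with its few UMIs, they were Wdr75 (0.043 and 0.056), Slc4a3 (0.033 and 0.036) and Pnkd (0.040 and 0.025).

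Other genes of the actin, adhesion and matrix systems were taken from 5 lists. Of 98 listed genes 48 were analysed here, the 5 members included. Of the 43 others 27 had at least 100 UMIs, 1 of which reached 2-fold in favour of GnRH and 0 the reverse, beside 1.22% and 0% of all 409 genes. Over the 27 the median log2 ratio was -0.03, against -0.09 over all 409 genes. That gene was Fhl2, a LIM-domain protein of adhesion sites and the nucleus, with 207 UMIs in vehicle-treated and 723 in GnRH-treated cells and a log2 ratio of 1.81 (1.59 to 2.04). Fhl2 overlaps Gm8210 on the other strand.

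The list of the Arp2/3 complex and its activators had 4 of 19 genes analysed, all with 100 UMIs or more, none past 2-fold and a median log2 ratio of 0.01. Abi2, a component of the WAVE complex that activates Arp2/3, had 1736 and 1755 UMIs and a log2 ratio of 0.03 (-0.07 to 0.12). Nck2, an adaptor in the same signalling, had 275 and 256 UMIs and a log2 ratio of -0.09 (-0.34 to 0.16). On the CPM scale neither of these 2 differed beyond counting error. The shift of median-of-ratios or TMM scaling, 0.08 or 0.09, puts the Abi2 interval just above 0. The spread of the 4 genes ran from 1.06 to 1.15 in the vehicle and from 0.951 to 1.03 in the GnRH library, and 0 of 4 reached 1.5, beside 5.81% and 6.73% of all genes.

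Of 8 adhesion genes analysed, all with 100 UMIs or more, the median log2 ratio was -0.12. Beside Fhl2 and Tns1, Ptp4a1, a phosphatase, went from 1214 to 1502 UMIs with a log2 ratio of 0.32 (0.21 to 0.43). Ptpn18, another phosphatase, went from 889 to 685 UMIs with a log2 ratio of -0.37 (-0.51 to -0.22). Map4k4, a kinase, and Ilkap, a phosphatase that binds integrin-linked kinase, were at -0.12 (-0.20 to -0.05) and -0.13 (-0.19 to -0.07). Tns1, at -0.16, was thus inside the range of its list.

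Of 14 matrix genes analysed, 5 had at least 100 UMIs, with a median log2 ratio of 0.00. Col3a1, Col5a2, Col4a3, Col9a1, Fmod and Prelp had 0 UMIs in both libraries, with upper limits of 3.28 CPM in vehicle-treated and 3.30 CPM in GnRH-treated cells. Igfbp2 had 36708 and 36534 UMIs (log2 ratio 0.00), Igfbp5 had 14941 and 13514 (-0.14), and Serpine2, a secreted protease inhibitor, had 12997 and 11231 (-0.20). Col19a1, a collagen, had 263 and 261 UMIs. The spread was at 1.5 or above in 4 of these 5 genes in each library, Fn1, Serpine2, Igfbp5 and Igfbp2, with a median of 1.88 and 1.83, and Col19a1 was at 1.35 and 1.40. Over all genes 5.81% and 6.73% reached that threshold. Igfbp2 and Igfbp5 bind growth factors and are not structural matrix proteins. With Fn1 among the genes chosen for its spread, and no test of a list, the count is a description.

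Of 12 actin-binding and contractile genes analysed, 7 had at least 100 UMIs, with a median log2 ratio of 0.03. Ppp1r12b, a myosin phosphatase subunit, had 691 and 584 UMIs (-0.23, -0.39 to -0.07). Srgap2, a regulator of Rac signalling, had 2226 and 1937 (-0.19, -0.28 to -0.10). Obsl1, Raph1 and Epb41l5 were at 0.01, 0.03 and 0.06, with intervals that span 0 on the CPM scale. Of 10 genes for plakins, microtubules and intermediate filaments, the group of Dst, 7 had at least 100 UMIs, with a median log2 ratio of -0.11. Map2, a microtubule-associated protein, had 2272 and 1869 UMIs (-0.27, -0.36 to -0.18). Actr1b, an actin-related protein of dynactin, was at -0.14 (-0.23 to -0.06), Stk25, a kinase, at -0.11 (-0.22 to -0.01), Kif1a, a kinesin, at -0.14 (-0.26 to -0.02) and Sept2, a septin, at -0.03 (-0.10 to 0.03). None of these reached 2-fold.

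Most genes on either side of the members had no UMIs. Cxcr1 and Gpbar1 beside Arpc2, 1700121L03Rik and Gm28706 beside Actr3, and Bend6 and Gm37958 beside Dst had 0 UMIs in both libraries. Beside Tns1, Gm29183 had 1 UMI in vehicle-treated and 4 in GnRH-treated cells and Rufy4 had 23 in each. Beside Fn1, Apol7d had 14 and 15 UMIs, and Atic, an enzyme of purine synthesis, had 976 and 938 with a log2 ratio of -0.05.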

How the data were processed

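LβT2 cells treated with vehicle or GnRH were measured in 1 library each. The authors deposited raw UMI counts per gene and cell, made with Cell Ranger 1.3 (build mm10, per the labels) with no normalisation. The first 1068 of 27998 listed genes were analysed here, and 1 incomplete row was left out. The 5 members, the gene lists and the markers were chosen with earlier results of these data known. Column names carry no cell barcodes, so barcodes shared by the libraries could not be counted. Doublets were not called, and an alternative drops the 5% of cells with most UMIs.

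UMIs were summed per library and scaled to CPM of the analysed genes. Intervals (95%) are exact, from the Poisson for sums, the binomial (Clopper-Pearson) for shares and the conditional binomial for ratios. With 1 library per treatment no test was run and no p-value is given. Genes with at least 100 UMIs were counted at 2-fold, and genes averaging 0.1 UMI or more at a spread of 1.5. Correlations are the mean over 20 thinnings to 300 UMIs per cell, on log2(UMIs + 1). Genes given with values were the members, their neighbours, the 3 genes most like each, and per list the 4 genes with most UMIs and the 3 with the largest log2 ratio. Other genes were named after their values were seen (Col19a1, the matrix genes at 0 UMIs, those ranked by r with Btg2 and those at a threshold). The steps were tested on simulated data. Python 3.11.15, numpy 2.4.6, scipy 1.17.1 and, for TMM, edgeR 4.0.16 were used.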

Additional observations from a re-analysis of the deposited data

How the results depend on the processing

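Median-of-ratios and TMM scaling shift all log2 ratios alike, by 0.08 and 0.09. Tns1 moved to -0.079 and -0.068, Arpc2 to 0.067 and 0.078, and Actr3 to 0.19 and 0.20. Without scaling Arpc2 was at 0.053 and Actr3 at 0.18, and with totals without Btg2 Arpc2 was at 0.029. Within depth ranges, chosen after seeing the data, Tns1 was at -0.82, -0.25 and -0.0097 (under 300, 300 to under 500, 700 or more UMIs), Fn1 at -0.77 (under 300), Arpc2 at 0.098, 0.066, 0.029 and -0.11 from the shallowest to the deepest range, and Actr3 at 0.17 and 0.026 (300 to under 500, 700 or more). The cause was not tested. Counts at 2-fold were 9 higher and 1 lower with a minimum of 20 UMIs and 22 and 14 with 1 UMI, as more genes entered.

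The plain Poisson expectation has no term for UMI totals. It put the vehicle spread of Tns1 at 1.77, Arpc2 at 1.98 and 1.59 (vehicle, GnRH) and Actr3 at 1.76 and 1.55, with 67 and 62 genes at 1.5 or above. After thinning, which lowers depth, Fn1 was at 1.48 and 1.43, Tns1 at 1.29 in the GnRH library, and 13 and 14 genes were past 1.5. Thinned shares of cells were 51.0% and 46.4% for Tns1, 13.4% and 14.7% for Fn1, 88.8% and 90.9% for Arpc2, and 80.4% and 82.7% for Actr3. Without thinning, where depth enters, r with Btg2 in the GnRH library was 0.236 for Tns1 and 0.016 for Arpc2, that of Tns1 with Fn1 there was 0.109, and in the vehicle library that of Tns1 was 0.036 with Arpc2 and 0.047 with Actr3. The other 175 of 180 correlations moved by less than 0.05. No paired analysis was possible because a single library stood for each treatment and nothing was tested. Dst, with 30 UMIs in all, is limited by depth throughout.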
